A study of Mus musculus with 8 samples.

Results

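The G1 cyclins and their kinases were followed as 8 genes of the 54232 in the count tables: the D-type cyclins Ccnd1, Ccnd2 and Ccnd3, the E-type cyclins Ccne1 and Ccne2, and the kinases Cdk2, Cdk4 and Cdk6. They were chosen by family and partnership, with earlier results of these data known. All 8 were found by symbol and passed the filter on low counts in every comparison. The cells were E14 mouse embryonic stem cells of the strain labelled 12910la, sequenced as RNA in 4 groups of 2 libraries. All groups were grown on gelatin in medium with 15% fetal bovine serum and 10 ng/ml of the cytokine LIF. The Ssrp1 experiment set libraries labelled Ssrp1 knockout, made with Cas9 and a guide RNA, against libraries with the genotype control. The protocol speaks of knockout cell lines beside wild-type cells, without saying how many lines there were, whether each replicate was a different clone, or whether the controls went through editing. The Usp7 experiment set cells given an shRNA against Usp7 from the pSuper puro plasmid against libraries with the genotype control. The protocol gives 1000 ng of plasmid, with puromycin at 1 ug/ml starting after 24 h and lasting 3 days, and leaves unsaid which plasmid and selection the Usp7 controls received. The stated aim of both was to examine the transcriptome once the targeted gene was lost or reduced.

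D-type cyclins bind Cdk4 or Cdk6 and E-type cyclins bind Cdk2, and these complexes phosphorylate the retinoblastoma proteins, which then release E2F factors to switch on genes for DNA replication. INK4 proteins hold Cdk4 and Cdk6, CIP/KIP proteins bind the cyclin-kinase complexes, and the D-type cyclins link growth signals to this switch. Mouse embryonic stem cells are known for a short G1 phase with low D-type cyclin activity and abundant cyclin E and Cdk2 activity.

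The D-type cyclins carry near their N-terminus the motif Leu-x-Cys-x-Glu, through which they dock on retinoblastoma proteins. The starts of the coding sequences are shown because this motif separates the D-type from the E-type members, and because the largest differences below fell on one member of each kind. Each line gives the first 45 coding bases of one GENCODE transcript on GRCm38 (mm10), 5′ to 3′, with the codons of the motif in capitals.
Ccnd1: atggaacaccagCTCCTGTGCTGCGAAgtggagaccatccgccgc
Ccnd2: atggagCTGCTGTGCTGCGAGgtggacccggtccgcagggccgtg
Ccnd3: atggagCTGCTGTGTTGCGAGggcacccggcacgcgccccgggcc
Ccne1: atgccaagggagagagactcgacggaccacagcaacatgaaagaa
Ccne2: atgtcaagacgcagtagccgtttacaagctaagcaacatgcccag
The Ccnd1 stretch lies at chr7:144939649-144939693 in exon 1 on the minus strand, the Ccnd2 stretch at chr6:127150729-127150773 in exon 1 on the minus strand, and the Ccnd3 stretch at chr17:47593655-47593699 in exon 3 on the plus strand. The Ccne1 stretch spans exons 2 and 3 on the minus strand (chr7:38106787-38106800 and chr7:38106653-38106683). The Ccne2 stretch spans exons 2 and 3 on the plus strand (chr4:11192704-11192717 and chr4:11192815-11192845). The motif was found once in frame in each D-type coding sequence and had no in-frame match in either E-type coding sequence.

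The members are related but distinct at the level of a read. Coding identity was 71.3% between Ccnd1 and Ccnd2, 66.7% between Ccnd1 and Ccnd3, 68.9% between Ccnd2 and Ccnd3, 62.3% between Ccne1 and Ccne2, and 68.7% between Cdk4 and Cdk6. No member shared an exact stretch of 50 bases with another member. Some shared exon sequence with other genes, with 14.4% of the 50-base stretches of Ccne2 lying also in Ints8, which overlaps it, 21.6% of those of Ccnd1 in LTO1, and 17% of those of Cdk4 in other genes, among them Tspan31. The strand setting of the counting is not given, so reads from such overlaps cannot be told apart.

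Total counts ranged from 15879056 to 18361130 per library. The Ssrp1 transcript stood at 462 and 479 CPM (counts scaled to a fixed library size by edgeR's TMM method) in its controls and at 412 and 123 CPM in replicates 1 and 2 of the libraries labelled knockout (log2 change -0.77, adjusted p = 0.41). Replicate 1 thus kept most of the transcript. Whether the gene was lost in that library cannot be told from the transcript level, and directions below refer to the label. Usp7 fell from 371 and 359 CPM to 111 and 122 CPM after its shRNA (log2 change -1.64, adjusted p = 0.0012). All 7 pluripotent stem cell markers were detected in every library, with a summed level of 4550 to 10635 CPM. Summed 2-cell-like markers were 54.4 and 147 CPM in the Ssrp1 controls, 445 and 1231 CPM in those labelled knockout, 4.25 and 4.21 CPM in the Usp7 controls and 27.8 and 23.1 CPM in the knockdown, with Tcstv1 at 0 counts in all Usp7 libraries. Summed endoderm markers were 2.80 and 5.78 CPM against 23.2 and 19.6 CPM in the Ssrp1 experiment and 7.42 and 8.37 CPM against 12.1 and 17.1 CPM in the Usp7 experiment. Fibroblast, mesoderm and neural markers summed to 15.1 to 41.1, 3.95 to 19.1 and 104 to 182 CPM over the 8 libraries, with the fibroblast markers Prrx1 and Postn at no more than 5 counts in any. Mitochondrially encoded genes took 0.732% and 0.776% of counts in the Ssrp1 controls and 7.31% and 2.81% in the libraries labelled knockout, against 1.67% to 2.44% in the Usp7 experiment. The part of any of these in the results below was not tested. In bulk RNA, fewer cells of a type and less RNA per cell cannot be told apart, and the labels do not state that the 2 replicates of a group were separate cultures. The p-values therefore cover no more than the variation among these libraries, and that may be technical.

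In the libraries labelled Ssrp1 knockout, Ccnd2 fell 14-fold and Ccne2 rose 5.57-fold, while the other 6 members did not pass the test. In the Usp7 knockdown Ccnd2 rose 2.00-fold and no other member passed. These are 1 member higher and 1 lower of 8 after Ssrp1 targeting, where 3.39% of 15757 genes tested were called higher and 0.324% lower, and 1 higher and 0 lower of 8 after Usp7 knockdown, where 2.36% of 15915 genes were called higher and 0.628% lower. The calls are those of edgeR's quasi-likelihood test with an adjusted p under 0.05. The median log2 change of the 8 members was -0.66 against 0.03 over all genes tested in the Ssrp1 experiment, and -0.12 against -0.02 in the Usp7 experiment. At an unadjusted p under 0.05 stood 4 and 2 of the 8 members in the Ssrp1 and Usp7 experiments, against 18.2% and 16.7% of all genes tested. DESeq2 called 1 higher and 1 lower in each experiment. Statements below that groups did not overlap, or that libraries lay above or below their controls, describe the values and are not calls. With no difference, 2 against 2 libraries still separate in 1 direction or the other with a probability of 0.333. The share of all genes tested that separated was not counted.

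**Figure D1:**
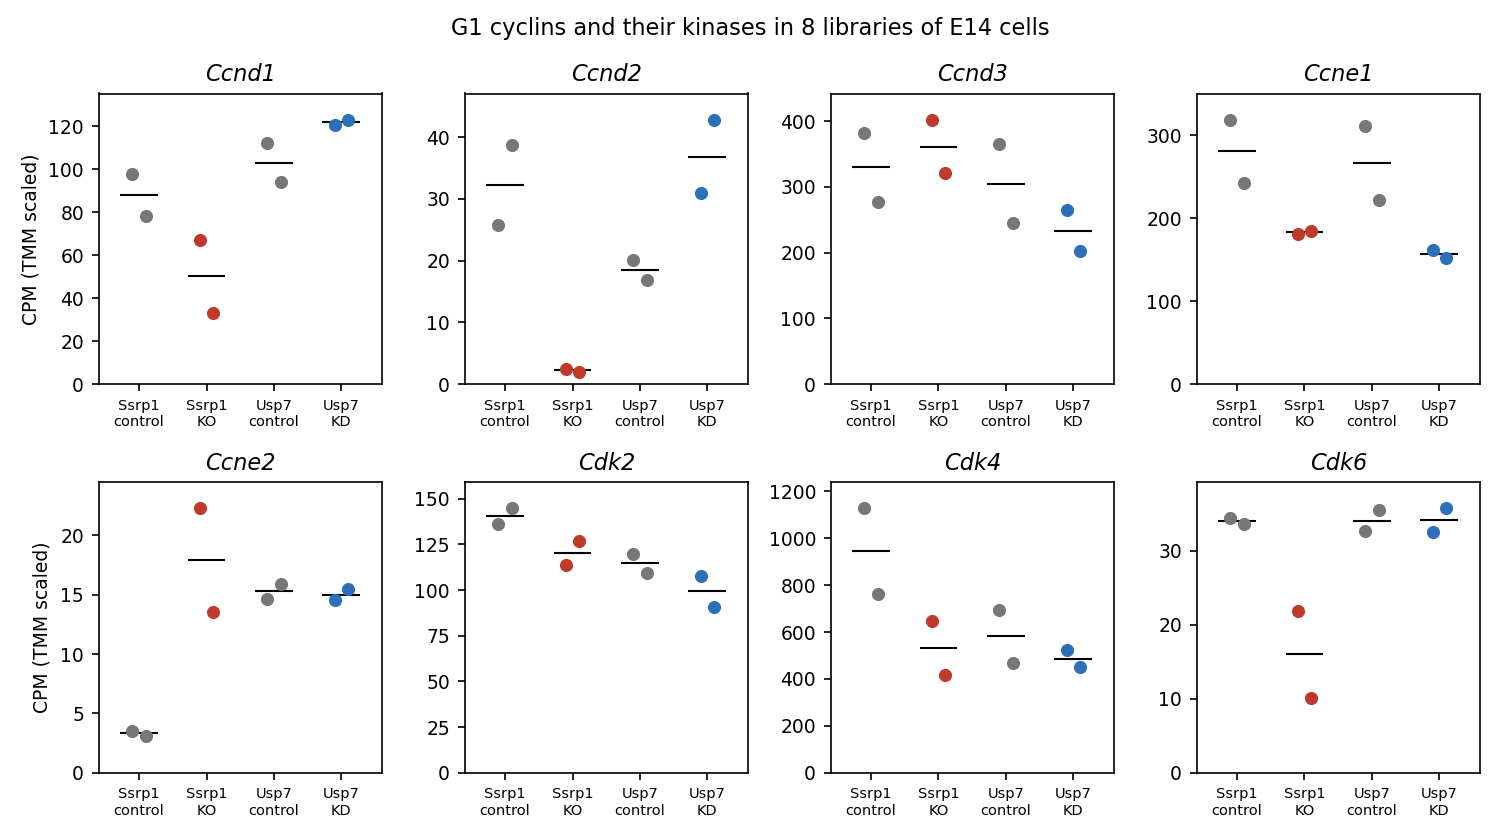
Level of each of the 8 genes in every library, in CPM after TMM scaling over the 8 libraries (vertical axis, linear, from 0), by group; each point is a library and the bar is the group mean. Ccnd2 sits near 0 only in the libraries labelled Ssrp1 knockout and Ccne2 is lowest in the Ssrp1 controls.

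Among the D-type cyclins, Ccnd2 (chromosome 6, 127125162 to 127152193) is a known target of growth signals and the one with the largest change. It had 359 and 656 counts in the Ssrp1 controls and 36 counts in each library labelled knockout, or 25.8 and 38.7 CPM against 2.44 and 2.03 CPM. In the Usp7 experiment it had 354 and 305 counts in controls and 586 and 817 in the knockdown, or 20.1 and 16.9 CPM against 30.9 and 42.8 CPM. The groups did not overlap in either experiment, and the level was similarly low in both libraries labelled knockout although their Ssrp1 transcript levels differed. The log2 change was -3.80 (SE 0.43, 95% interval -4.76 to -2.85, adjusted p = 0.0055) after Ssrp1 targeting and 1.00 (SE 0.23, 0.50 to 1.50, adjusted p = 0.042) after Usp7 knockdown. The fall was called in the fit as reported and under all 11 alternatives, whereas the rise after Usp7 knockdown was not called without knockdown replicate 2 (0.74, adjusted p = 0.84), in the fit of all 8 libraries (1.00, adjusted p = 0.22) or without the filter on low counts (0.98, adjusted p = 0.18). Gm43126 and 9330179D12Rik, the genes whose exons share sequence with Ccnd2, had 0 counts in all libraries except for 2 counts of 9330179D12Rik in knockdown replicate 1.

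Ccnd1 (chromosome 7, 144929931 to 144939925), the D-type cyclin best known as a target of growth factor signalling, had 97.6 and 78.0 CPM in the Ssrp1 controls and 67.1 and 33.2 CPM in those labelled knockout. It had 112 and 94.1 CPM in the Usp7 controls and 121 and 123 CPM in the knockdown. Both libraries labelled knockout were below both controls, replicate 2 by far the most, and both knockdown libraries were above theirs. Neither difference passed the test, with log2 changes of -0.76 (SE 0.35, adjusted p = 0.28) and 0.24 (SE 0.18, adjusted p = 0.55). Leaving out a knockout replicate leaves 1 library in that group. The log2 change of Ccnd1 was then -1.41 without replicate 1 and -0.34 without replicate 2.

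Ccnd3 (chromosome 17, 47505051 to 47599691), the remaining D-type cyclin, had 382 and 278 CPM in the Ssrp1 controls, 402 and 321 CPM in those labelled knockout, 365 and 245 CPM in the Usp7 controls and 264 and 202 CPM in the knockdown. Its groups overlapped in both experiments. The log2 change was 0.19 (95% interval -0.44 to 0.81, adjusted p = 0.79) and -0.38 (-0.90 to 0.13, adjusted p = 0.45), and neither was called. In the Usp7 experiment it was -0.080 (adjusted p = 0.87) without control replicate 1 and -0.64 (adjusted p = 0.0083) without control replicate 2, when 3770 genes were called in all against 476.

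Per kilobase of annotated exon, Ccnd3 was the most abundant D-type transcript in 7 libraries, and in knockdown replicate 2 Ccnd1 (26.1 CPM per kb) was above Ccnd3 (23.1 CPM per kb). Ccnd2 made up 5.97% ± 2.67 of the summed D-type level in Ssrp1 controls against 0.462% ± 0.045 after Ssrp1 targeting, and 3.39% ± 0.33 in Usp7 controls against 7.02% ± 2.05 after Usp7 knockdown (SD, n = 2). Ccnd1 made up 31.3% ± 0.49 and 19.9% ± 5.34 in the Ssrp1 experiment, and 37.7% ± 3.53 and 46.0% ± 3.68 in the Usp7 experiment. The summed D-type level overlapped between groups in both experiments, at 67.0 and 52.3 against 60.3 and 43.8 CPM per kb after Ssrp1 targeting and 67.5 and 49.7 against 59.0 and 53.7 CPM per kb after Usp7 knockdown. These shares take all annotated exons as the length of a gene, which need not be the length of the isoform expressed.

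**Figure D2:**
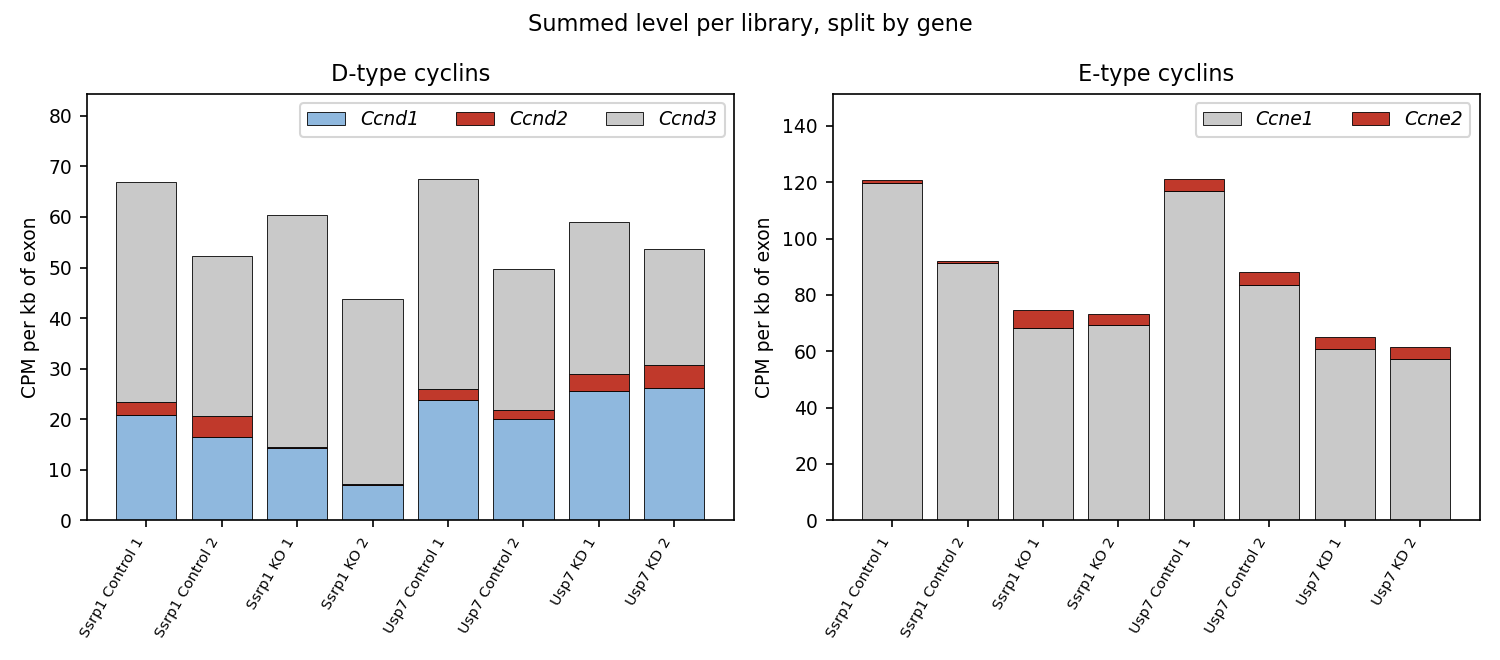
Stacked bars of the D-type (left) and E-type (right) cyclin level in each of the 8 libraries, in CPM per kb of exon on linear axes from 0, split by gene. The red Ccnd2 band all but vanishes in the libraries labelled Ssrp1 knockout, and the red Ccne2 band is thinnest in the Ssrp1 controls.

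Of the E-type cyclins, Ccne1 (chromosome 7, 38097984 to 38107534) is the major form in these libraries. It had 319 and 243 CPM in the Ssrp1 controls, 182 and 185 CPM in those labelled knockout, 311 and 223 CPM in the Usp7 controls, and 162 and 152 CPM in the knockdown. In both experiments the perturbed libraries lay below both of their controls and close to each other. The log2 changes were -0.56 (SE 0.27, 95% interval -1.15 to 0.03, adjusted p = 0.30) and -0.77 (SE 0.21, -1.22 to -0.31, adjusted p = 0.083), and neither was called. In the Usp7 experiment the fall of Ccne1 was called under 5 alternatives and not under 6. It was called by DESeq2 (-0.78, adjusted p = 0.016) and with offsets for GC content and length (-0.68, adjusted p = 0.037). It was not called in the fit of all 8 libraries (-0.77, adjusted p = 0.25) or without the filter on low counts (-0.78, adjusted p = 0.25). With 1 library left out, the change was -0.52 without Usp7 control replicate 1 and -0.99 without Usp7 control replicate 2. It was -0.81 without knockdown replicate 1 and -0.72 without knockdown replicate 2.

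Ccne2 (chromosome 4, 11191351 to 11204779), the other E-type cyclin and itself an E2F target, had 49 and 53 counts in the Ssrp1 controls and 328 and 239 in the libraries labelled knockout, or 3.51 and 3.13 CPM against 22.3 and 13.5 CPM. In the Usp7 experiment it had 259 and 287 counts in controls and 275 and 296 in the knockdown, or 14.7 and 15.9 CPM against 14.5 and 15.5 CPM. The Ssrp1 controls stood apart from all 6 other libraries, and the libraries labelled knockout spanned the range of the Usp7 experiment. The log2 change was 2.48 (SE 0.47, 95% interval 1.45 to 3.50, adjusted p = 0.019) after Ssrp1 targeting and -0.03 (-0.52 to 0.46, adjusted p = 0.97) after Usp7 knockdown. Offsets for GC content and length lowered the rise to 1.18 (adjusted p = 0.16), and it was not called without Ssrp1 control replicate 1 (2.51, adjusted p = 0.22) or 2 (2.41, adjusted p = 0.078). The longest transcript of Ccne2 holds 36.3% GC, the lowest of the 8 members, whose others range from 45.1% to 56.7%. Ints8, which overlaps Ccne2, had 320 and 748 counts in the Ssrp1 controls and 1234 and 1385 in the libraries labelled knockout (log2 change 1.31, adjusted p = 0.068).

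Per kilobase, Ccne2 made up 0.902% ± 0.098 of the E-type level in Ssrp1 controls against 6.91% ± 2.31 after Ssrp1 targeting, and 4.31% ± 1.20 in Usp7 controls against 6.80% ± 0.57 after Usp7 knockdown (SD, n = 2). The summed E-type level, nearly all of it Ccne1, was 106 ± 20.3 against 73.9 ± 0.96 CPM per kb in the Ssrp1 experiment and 105 ± 23.3 against 63.2 ± 2.40 CPM per kb in the Usp7 experiment.

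Cdk4 (chromosome 10, 127063534 to 127067920), the main partner of the D-type cyclins here by transcript level, had 1127 and 762 CPM in the Ssrp1 controls and 649 and 418 CPM in those labelled knockout. It had 695 and 467 CPM in the Usp7 controls and 522 and 449 CPM in the knockdown. The Ssrp1 groups did not overlap and the Usp7 groups did. The log2 changes were -0.77 (SE 0.33, adjusted p = 0.25) and -0.26 (SE 0.23, adjusted p = 0.63), and neither was called. The Usp7 value depended on the controls: it was 0.046 (adjusted p = 0.93) without control replicate 1 and -0.51 (adjusted p = 0.043) without control replicate 2, when 3770 genes were called in all against 476.

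Cdk6 (chromosome 5, 3341485 to 3531008), the alternative partner of the D-type cyclins, had 34.4 and 33.6 CPM in the Ssrp1 controls and 21.9 and 10.2 CPM in those labelled knockout. In the Usp7 experiment it had 32.7 and 35.5 CPM in controls and 32.6 and 35.8 CPM in the knockdown. It was thus near one level in 6 libraries and lower in both labelled knockout, lowest in replicate 2. The log2 changes were -1.04 (SE 0.40, 95% interval -1.91 to -0.16, adjusted p = 0.19) and 0.00 (-0.42 to 0.43, adjusted p = 0.996), and neither was called. With 1 knockout library left out, the Ssrp1 change was -1.75 without replicate 1 and -0.59 without replicate 2. Cdk6 made up 0.860% and 0.670% of the summed Cdk4 and Cdk6 level per kilobase in the Ssrp1 groups and 1.41% and 1.62% in the Usp7 groups, in the order control and perturbed.

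Cdk2 (chromosome 10, 128697939 to 128705031), the partner of the E-type cyclins, varied least of the kinases, with 136 and 145 CPM in the Ssrp1 controls, 114 and 127 CPM in those labelled knockout, 120 and 109 CPM in the Usp7 controls and 108 and 90.9 CPM in the knockdown. The perturbed libraries lay just below both controls in each experiment. The log2 changes were -0.17 (95% interval -0.74 to 0.40, adjusted p = 0.79) and -0.20 (-0.61 to 0.20, adjusted p = 0.63).

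**Figure D3:**
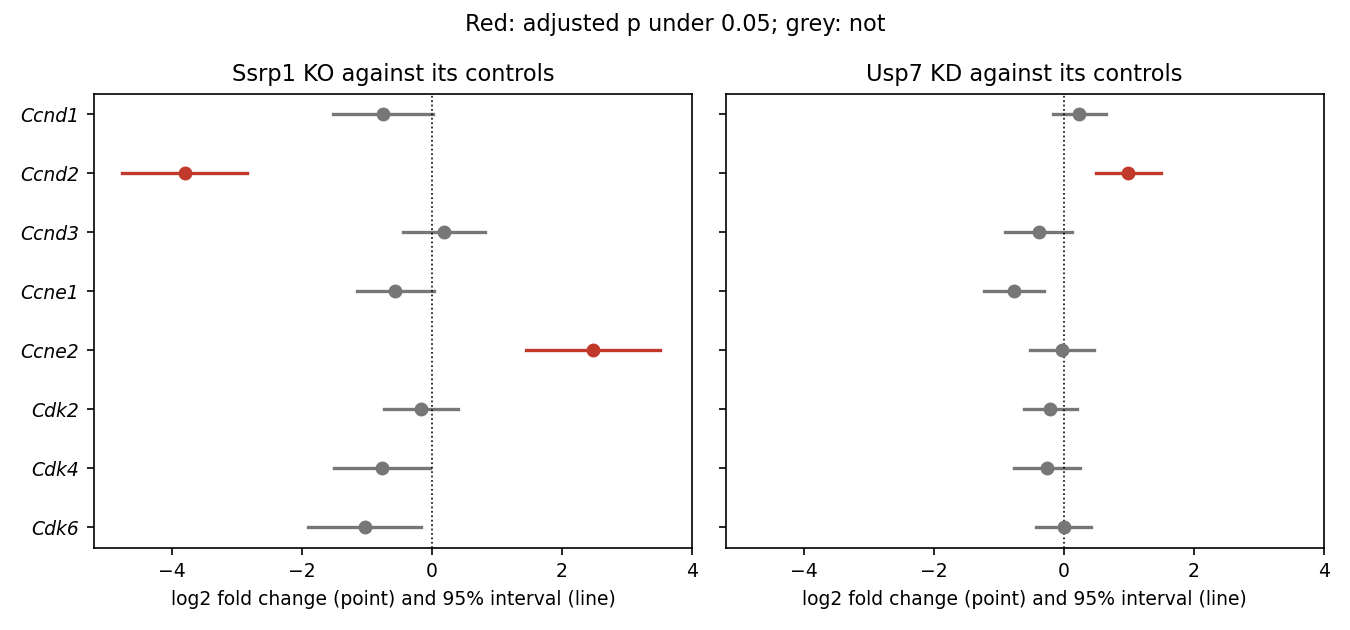
Log2 fold change of each of the 8 genes (point) with its 95% interval (line) in the Ssrp1 experiment (left) and the Usp7 experiment (right), on the same horizontal scale; red marks an adjusted p under 0.05. Ccnd2 lies at -3.80 on the left and 1.00 on the right, and Ccne2 at 2.48 on the left and -0.03 on the right.

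Ranked by mean CPM per kb within a group, Cdk4, Ccne1 and Ccnd3 were the top transcripts in that order in all 4 groups, at 291, 105 and 37.6 in the Ssrp1 controls, 164, 68.8 and 41.2 in the libraries labelled knockout, 179, 100.3 and 34.8 in Usp7 controls and 149, 58.9 and 26.6 after Usp7 knockdown. Cdk2 and Ccnd1 followed, at 22.6 and 18.6, 19.3 and 10.6, 18.4 and 21.9, and 16.0 and 25.9 CPM per kb in the same groups. Ccnd2, Cdk6 and Ccne2 were always the lowest. In the Ssrp1 controls their order was Ccnd2 (3.42), Cdk6 (2.43) and Ccne2 (0.950), and after Ssrp1 targeting it was reversed, with Ccne2 at 5.12, Cdk6 at 1.15 and Ccnd2 at 0.238 CPM per kb. In the Usp7 controls the order was Ccne2 (4.38), Cdk6 (2.44) and Ccnd2 (1.96), and in the knockdown Ccne2 (4.29), Ccnd2 (3.92) and Cdk6 (2.44). Neighbours in these orders overlapped between libraries only in the knockdown, for Ccnd3 with Ccnd1 and for Ccne2 with Ccnd2.

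The Ssrp1 change minus the Usp7 change of each member was tested in a joint fit of all 8 libraries. The difference was -4.84 for Ccnd2 (SE 0.44, adjusted p = 0.0039) and 2.45 for Ccne2 (SE 0.45, adjusted p = 0.031). These are 1 member higher and 1 lower of 8, where 0.610% of 17052 genes were called higher and 0.393% lower. Offsets for GC content and length turned the split over all genes from 104 higher and 67 lower to 71 higher and 73 lower, and lowered the Ccne2 difference to 1.28 (adjusted p = 0.15). The Ccne2 difference was also not called without either Ssrp1 control or without any of the 4 Usp7 libraries, at 2.36 to 2.53 with adjusted p of 0.076 to 0.25. For Ccnd1 and Cdk6 the differences of -1.05 (adjusted p = 0.27) and -1.09 (adjusted p = 0.28) were not called. With 1 knockout library left out, they were -1.66 and -1.76 without replicate 1, and -0.66 and -0.67 without replicate 2. For the other 4 members the difference was between -0.56 for Cdk4 (95% interval -1.50 to 0.38) and 0.52 for Ccnd3 (-0.32 to 1.36), with 0.15 for Ccne1 and -0.02 for Cdk2 and adjusted p of at least 0.58.

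The control groups, set against each other in that fit, differed in Ccne2. Its level was lower in the Ssrp1 controls than in the Usp7 controls by a log2 change of -2.20 (SE 0.33, adjusted p = 0.0048), or 4.60-fold, and without Ssrp1 control replicate 1 the call was lost (-2.28, adjusted p = 0.051). Offsets for GC content and length brought this value to -1.20, which was still called (adjusted p = 0.031). This is 0 members higher and 1 lower of 8, where 4.06% of genes were called higher and 3.92% lower. Ccnd2 (0.80, adjusted p = 0.10) and Cdk4 (0.70, adjusted p = 0.17) did not pass, and for the other 5 members the adjusted p was at least 0.39. The Ssrp1 comparison and this one share the Ssrp1 controls, so the Ccne2 values of both rest on the same libraries. Any difference between the experiments cannot be told apart from one between the control cells.

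**Figure D4:**
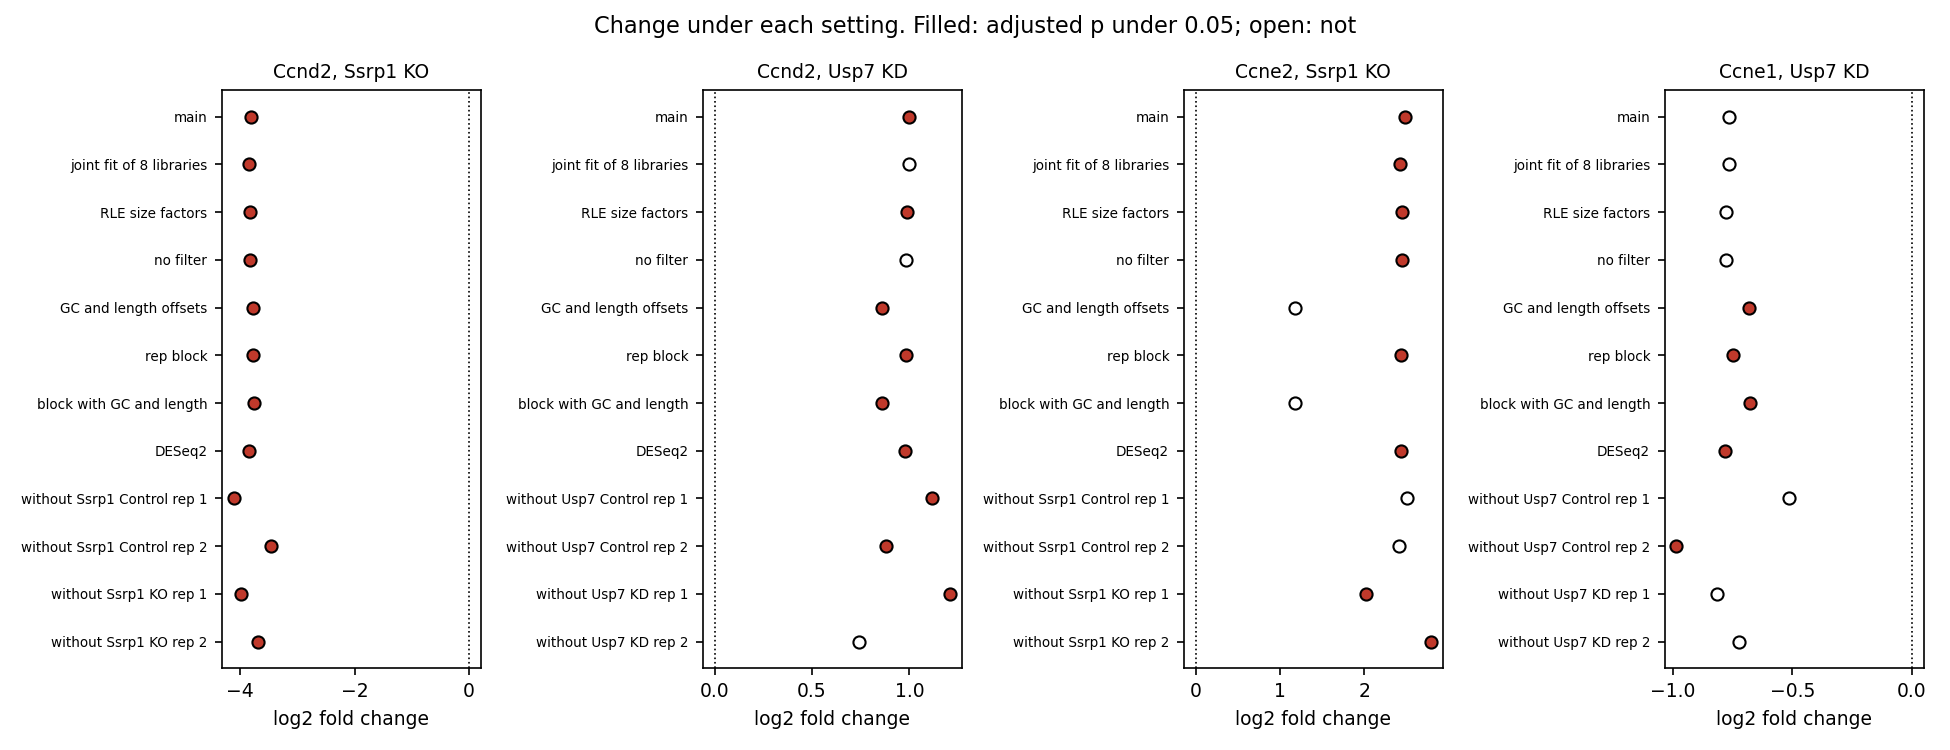
Log2 fold change (horizontal axes, linear, scales differ between panels) of Ccnd2 in both experiments, Ccne2 in the Ssrp1 experiment and Ccne1 in the Usp7 experiment, under the reported fit (top point, named main) and 11 alternatives; filled points have an adjusted p under 0.05. Ccnd2 in the Ssrp1 experiment is filled throughout, and Ccne2 drops to 1.18 with offsets for GC content and length.

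Of the 7 INK4 and CIP/KIP inhibitors tested, 1 rose after Usp7 knockdown and none was called in the Ssrp1 experiment (2 at an unadjusted p under 0.05, and 1 called higher by DESeq2). Over all genes tested, 2.36% were called higher after Usp7 knockdown and 3.39% in the Ssrp1 experiment. At an unadjusted p under 0.05 stood 18.2% of all genes in the Ssrp1 experiment. Cdkn1a, the CIP/KIP inhibitor p21 and a p53 target, had 57.1 and 58.0 CPM in the Usp7 controls and 151 and 169 CPM in the knockdown. Its log2 change was 1.47 (SE 0.18, adjusted p = 0.0018), and the call was lost without knockdown replicate 2 (adjusted p = 0.14) and in the fit of all 8 libraries (adjusted p = 0.16). In the Ssrp1 experiment Cdkn1a had 105 and 74.5 CPM in controls and 37.9 and 104 CPM in those labelled knockout, which overlap (-0.28, adjusted p = 0.78). Cdkn1b, the inhibitor p27, had log2 changes of -0.57 (adjusted p = 0.40) and -0.43 (adjusted p = 0.44). Cdkn2a, which encodes p16 and Arf, had 1.33 (adjusted p = 0.11) and 0.78 (adjusted p = 0.17).

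Of 13 RB and E2F family genes, 3 rose after Usp7 knockdown and none fell, where 2.36% of all genes tested were called higher and 0.628% lower. In the Ssrp1 experiment these shares were 3.39% and 0.324%. Rb1 encodes the retinoblastoma protein, and had 12.3 and 16.0 CPM in the Usp7 controls against 31.2 and 31.6 CPM in the knockdown (1.15, adjusted p = 0.021). Its relative Rbl2 rose by 1.07 (adjusted p = 0.043), and E2f6, a repressor of the E2F family, by 1.18 (adjusted p = 0.0100). In the Ssrp1 experiment 1 of the 13 fell, E2f8, an atypical E2F repressor, from 34.1 and 36.1 CPM to 13.2 and 12.7 CPM (-1.39, adjusted p = 0.043), and this call was lost with offsets for GC content and length and without either Ssrp1 control. Rb1 did not pass there (1.21, adjusted p = 0.18), and E2f1, an activator, had -0.03 (adjusted p = 0.97) and -0.31 (adjusted p = 0.43) in the Ssrp1 and Usp7 experiments. The E2f6 change differed between the experiments by -1.67 (SE 0.31, adjusted p = 0.031), a call lost without either Ssrp1 control or any of the 4 Usp7 libraries. Without knockdown replicate 2, when 42 genes were called in all, none of the Usp7 calls named for the inhibitors and the RB and E2F family was made. Rb1 and Rbl2 also lost the call without knockdown replicate 1, and Rbl2 without Usp7 control replicate 1. Rb1 and Rbl2 lost it in the fit of all 8 libraries as well, and Rb1, Rbl2 and E2f6 lost it without the filter on low counts.

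**Figure D5:**
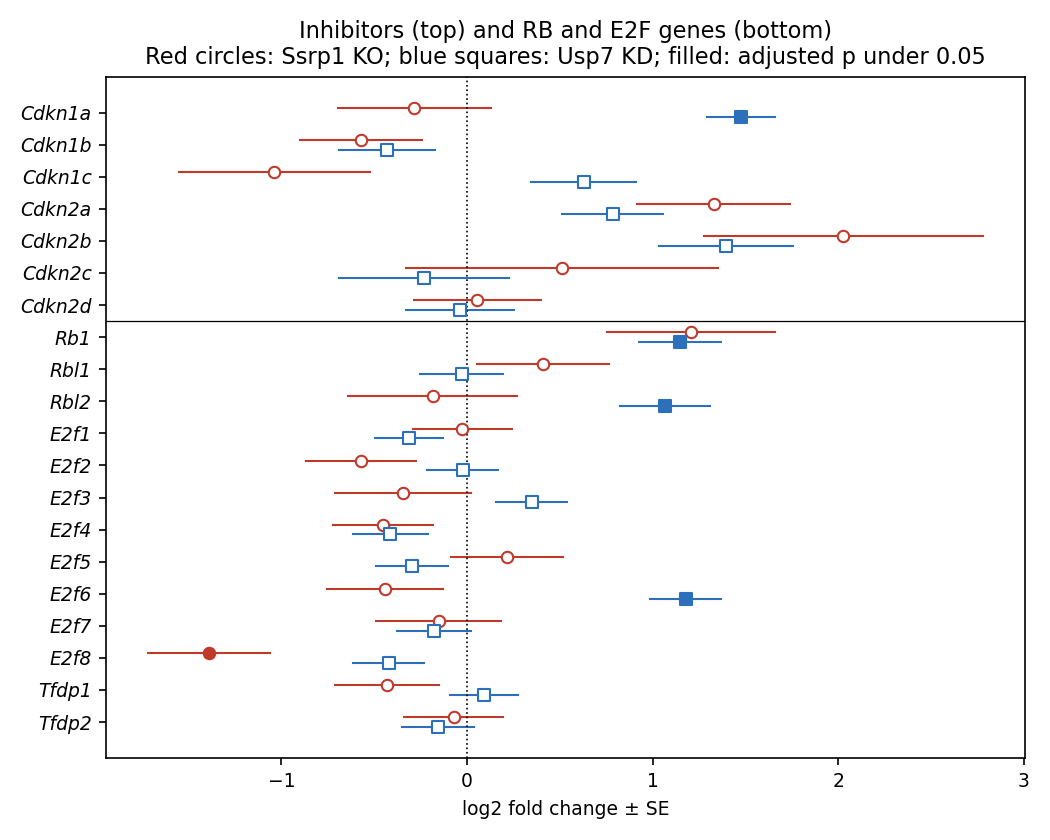
Log2 fold change with its SE for 7 inhibitor genes (top) and 13 RB and E2F genes (bottom) in the Ssrp1 experiment (red circles) and the Usp7 experiment (blue squares), on a linear axis; filled symbols have an adjusted p under 0.05. Cdkn1a, Rb1, Rbl2 and E2f6 are filled in the Usp7 experiment and E2f8 in the Ssrp1 experiment.

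Of 27 E2F target genes of the G1/S transition, 1 fell after Usp7 knockdown, Chaf1b, a subunit of the chromatin assembly factor that deposits histones behind the replication fork (-0.84, SE 0.19, adjusted p = 0.044). Over all genes tested in the Usp7 experiment, 0.628% were called lower. All 27 had a log2 change below 0 there, against 51.6% of all genes tested, with a median of -0.36 against -0.02, and 8 were at an unadjusted p under 0.05. In the Ssrp1 experiment none of the 27 was called by edgeR or DESeq2, 1 was at an unadjusted p under 0.05, and 20 were below 0 against 48.1% of all genes, with a median of -0.16 against 0.03. Over all genes tested, 16.7% stood at an unadjusted p under 0.05 in the Usp7 experiment and 18.2% in the Ssrp1 experiment. No gene of the list was called for the difference between the experiments by either tool.

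Of 11 genes of cyclin turnover, 1 was called in the Ssrp1 experiment, where 3.39% of all genes tested were called higher and 0.324% lower. Skp1a, the adaptor of SCF ubiquitin ligases, rose from 204 and 193 CPM to 432 and 484 CPM (1.26, SE 0.27, adjusted p = 0.031), a call lost with offsets for GC content and length and without either Ssrp1 control. None was called in the Usp7 experiment by edgeR, with 2 at an unadjusted p under 0.05 and 1 called higher by DESeq2. Over all genes tested, 18.2% and 16.7% stood at an unadjusted p under 0.05 in the Ssrp1 and Usp7 experiments. Of 8 genes that activate the kinases none was called in either experiment by either tool, and 0 and 1 were at an unadjusted p under 0.05 in the Ssrp1 and Usp7 experiments. In the comparison of the control groups, Mnat1 (1.14, adjusted p = 0.030), Cdc25c (1.12, adjusted p = 0.020) and Rbx1 (1.01, adjusted p = 0.047) were higher and Cul3 (-1.05, adjusted p = 0.040) lower in the Ssrp1 controls, and each of these calls was lost without Ssrp1 control replicate 1 and without either Usp7 control. Offsets for GC content and length brought Cul3 to -0.26. Between the control groups 4.06% of all genes tested were called higher and 3.92% lower.

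Of 12 genes of mitogen and MYC output, Egr1, an immediate early gene, fell after Usp7 knockdown (-1.52, SE 0.35, adjusted p = 0.042) and was not called by DESeq2, in the fit of all 8 libraries, without the filter on low counts, or without Usp7 control replicate 1 or knockdown replicate 1 (-1.0 without the latter). Over all genes tested in the Usp7 experiment, 0.628% were called lower. In the Ssrp1 experiment none of the 12 was called by either tool and 1 was at an unadjusted p under 0.05, against 18.2% of all genes tested. Knockout replicate 2, which had the lowest Ccnd1, Cdk4 and Cdk6, also had 7.34 CPM of Myc against 52.3 CPM in replicate 1 and 39.2 and 38.4 CPM in the controls, 58.3 CPM of Mycn against 142, 152 and 162 CPM, and 4.91 CPM of Egr1 against 53.5, 21.7 and 18.5 CPM. Myc, Mycn and Egr1 were picked here after their values were seen. The levels of the other listed genes in knockout replicate 2 are not given here. Whether the list as a set was low in that library was not tested. Of the 12 genes listed, 6 had a log2 change below 0 in the Ssrp1 experiment, against 48.1% of all genes tested. That change takes replicates 1 and 2 together and does not describe replicate 2 alone. The part of knockout replicate 2 in the Ccnd1, Cdk4 and Cdk6 values was not tested beyond leaving it out, which gave -0.34 for Ccnd1, -0.49 for Cdk4 and -0.59 for Cdk6. Those values rest on knockout replicate 1, which had 412 CPM of Ssrp1 against 123 CPM in replicate 2. Myc had log2 changes of -0.33 (adjusted p = 0.84) and -0.43 (adjusted p = 0.47), and Mycn of -0.60 (adjusted p = 0.44) and 0.00 (adjusted p = 0.99).

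Among cyclins and kinases of other phases, Ccna2 (0.42, adjusted p = 0.46 and -0.06, adjusted p = 0.91) and Cdk1 (0.03, adjusted p = 0.97 and -0.34, adjusted p = 0.49) were not called in the Ssrp1 and Usp7 experiments. Cdk1 was higher in the Ssrp1 than in the Usp7 controls (0.99, adjusted p = 0.034), a call lost without either Ssrp1 control, Usp7 control replicate 2 or either knockdown library. Of 6 A- and B-type cyclin genes with Cdk1 tested in the Ssrp1 experiment none was called by either tool and none was at an unadjusted p under 0.05. Of 7 tested in the Usp7 experiment 1 was called, Ccnb3, a meiotic cyclin, with 0 and 0 counts in controls and 18 and 45 in the knockdown. Of 24 other cyclins and kinases tested there, Ccng1, a p53 target, rose by 1.18 (adjusted p = 0.012) and Cdk14 by 2.65 (adjusted p = 0.023) on 5 and 9 counts against 43 and 52, and Cdk18 fell by 1.18 on the log2 scale (adjusted p = 0.016). The Ssrp1 experiment had 0 of 23 called by edgeR, 2 called higher by DESeq2 and 6 at an unadjusted p under 0.05, and the Cdk18 change differed between the experiments by 2.15 (SE 0.33, adjusted p = 0.017), a call lost without Ssrp1 control replicate 1 or any of the 4 Usp7 libraries. Without knockdown replicate 2 neither Chaf1b nor Ccnb3, Ccng1, Cdk14 or Cdk18 was called in the Usp7 experiment. Chaf1b and Cdk18 also lost the call without knockdown replicate 1, and Cdk14 without Usp7 control replicate 1. Chaf1b, Cdk14 and Cdk18 lost it in the fit of all 8 libraries as well, and all 5 lost it without the filter on low counts. Over all genes tested, 2.36% were called higher and 0.628% lower in the Usp7 experiment, and 4.06% higher between the control groups. In the Ssrp1 experiment 18.2% of all genes stood at an unadjusted p under 0.05.

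For each member called in an experiment, the genes most like it in pattern were found as those with the smallest root mean square difference of centred log2 CPM over the 8 libraries, among 10959 genes. Nearest to Ccnd2 were Lefty2, a Nodal antagonist (0.54), Ntn1, which encodes netrin-1 (0.61), Crmp1 (0.61) and the antisense RNA Lrp8os2 (0.69). Lefty2 had 152 and 195 CPM in the Ssrp1 controls and 31.3 and 7.57 CPM in those labelled knockout, with 105 and 114 CPM in the Usp7 controls and 124 and 160 CPM in the knockdown. That Lefty2, like Ccnd2, was lowest in both libraries labelled knockout follows from its choice by likeness. Nearest to Ccne2 were Depdc1a (0.17), the nuclear export receptor Xpo1 (0.21), C1galt1 (0.25) and Azin1 (0.25). Xpo1 had 85.1 and 125 CPM in the Ssrp1 controls and 347 to 655 CPM in the other 6 libraries. Its low level in the Ssrp1 controls likewise follows from the choice. The longest transcripts of the 4 genes nearest to Ccne2 hold 35.3%, 40.4%, 39.8% and 39.3% GC, against 36.3% for Ccne2. Those of the 4 nearest to Ccnd2 hold 51.5%, 57.8%, 56.0% and 53.4%, against 47.1% for Ccnd2. The GC content of all 10959 genes was not set beside these values, and its part in the likeness was not tested.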

How the data were processed

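RNA-seq libraries of E14 cells were measured in 2 experiments of 4 libraries. The authors deposited unnormalised gene counts, made with cutadapt, HISAT2 and featureCounts on mm10, per the submitters' processing notes, with tool versions, annotation release, strand setting and the handling of multi-mapped reads not given in the sources used here. Ambiguous reads of copies or overlapping genes may therefore be missing or misplaced. All 92 spike-in sequences had 0 counts, so there is no external standard and each change is relative within a library. Sample titles gave the groups, and all 8 libraries entered the reported values.

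Symbols, coordinates, exon lengths, GC content and coding sequences came from the GENCODE annotation of GRCm38, in which 67 identifiers had no symbol. Each experiment was fitted alone with edgeR 4.0.16 in R 4.3.3 (filterByExpr, TMM, quasi-likelihood F test, Benjamini-Hochberg adjustment over all genes tested). The difference between experiments and the comparison of controls came from a joint fit of 8 libraries, which also scaled the printed CPM. Each SE is the log2 change divided by the square root of F. Values beside a level are SD over 2 libraries. An exact permutation test of 2 against 2 libraries cannot go below p = 0.333, so none was used. In simulated data the Ssrp1 fit, over 15270 genes, recovered 18%, 69% and 88% of genes changed by a log2 of 1, 2 and 3 with 8 false calls, and the Usp7 fit, over 15502 genes, 57%, 99% and 100% with 8 false calls. The changed genes were drawn above a floor of expression, and every gene took the spread of the common trend. Each fit was run on a single simulated set, so these shares need not hold for the measured libraries.

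Alternatives were DESeq2 1.42.0, RLE size factors, no filter, GC and length offsets (mgcv 1.9.3), the joint fit, a replicate block with and without these offsets, and leaving out each library. Where this leaves a group with 1 library, that library is assumed to vary like the others.

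The members and lists were chosen with earlier results of these data known. Genes named are the 8 members, Ssrp1, Usp7, Cdkn1a, Cdkn1b, Cdkn2a, Rb1, E2f1, Myc, Mycn, Ccna2 and Cdk1, up to 4 called genes per list and comparison with the largest change, and the 4 genes most like each called member in pattern, leaving out predicted genes and requiring 5 CPM in the highest group. Log2 CPM used a prior count of 2. Ints8, LTO1, Tspan31, Gm43126 and 9330179D12Rik are named for their overlap with a member, Tcstv1, Prrx1 and Postn as markers at or near 0, and values of Myc, Mycn and Egr1 in single libraries were chosen after they were seen.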

Additional observations from a re-analysis of the deposited data

Results flagged for a closer look

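For 4 genes the change in the Ssrp1 experiment and the change in the Usp7 experiment differed by the test of the difference itself, in the edgeR fit of all 8 libraries. The values are the Ssrp1 change minus the Usp7 change on the log2 scale: -4.84 for Ccnd2 (adjusted p = 0.0039), 2.45 for Ccne2 (adjusted p = 0.031), -1.67 for E2f6 (adjusted p = 0.031) and 2.15 for Cdk18 (adjusted p = 0.017). For Ccnd2 the sign of the change was opposite, with both libraries labelled knockout below and both knockdown libraries above their controls. Its rise after Usp7 knockdown was itself not called in that fit (1.00, adjusted p = 0.22) or without the filter on low counts (0.98, adjusted p = 0.18). For Ccne2 the libraries that stood apart were the Ssrp1 controls, and offsets for GC content and length lowered its difference to 1.28, which was not called (adjusted p = 0.15). As given above, the calls for Ccne2, E2f6 and Cdk18 were lost without any of the 4 Usp7 libraries. The cause of these differences was not tested.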

How the results depend on the processing

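No called change or difference reversed its sign. The Ssrp1 experiment called 585 genes: 1314 in the joint fit, 1497 without the filter, 338 with GC and length offsets, 1088 with DESeq2, and 20 (without control replicate 1) to 1884 (without knockout replicate 2) with a library left out. The Usp7 experiment called 476: 78 in the joint fit, 100 without the filter, 800 with the offsets, and 42 (without knockdown replicate 2) to 3770 (without control replicate 2). The difference called 171: 945 without the filter, 656 with DESeq2, and 1 (without Usp7 control replicate 1 or knockdown replicate 2) to 1109 (without knockout replicate 2). The control comparison called 1361: 2539 without the filter, 2230 with DESeq2, and 135 (without Usp7 control replicate 2) to 2815 (without knockout replicate 1). Leaving out a library or joining the experiments changes the number of libraries by construction, and the cause of the other shifts was not tested. With a replicate block the counts were 988, 1471, 525 and 2491, and 1235, 1818, 403 and 2221 with GC and length offsets as well. Same-numbered libraries deviated together by 0.184 and 0.144 (correlation), but 2 pairs do not establish pairing. Under the block Ccne1 in the Usp7 experiment was called (-0.75), and with the offsets added Ccne1 (-0.68) and Cdk6 in the Ssrp1 experiment (-1.25) were called, while Ccne2 was not in the Ssrp1 experiment (1.18) or the difference (1.28). GC and length offsets alone gave the same 1.18 and 1.28 for Ccne2 and -0.68 for Ccne1. Ccnd2 in the Usp7 experiment was 1.00 in the joint fit and 0.98 without the filter, and Ccne1 there was -0.78 with DESeq2. With a library left out, calls were gained or lost within these ranges: in the Ssrp1 experiment Ccnd1 -1.41 to -0.34, Ccne2 2.01 to 2.79 and Cdk6 -1.75 to -0.59; in the Usp7 experiment Ccnd2 0.74 to 1.21, Ccnd3 -0.64 to -0.080, Ccne1 -0.99 to -0.52 and Cdk4 -0.51 to 0.046; for the difference Ccnd1 -1.66 to -0.66, Ccne2 2.04 to 2.74 and Cdk6 -1.76 to -0.67; between controls Ccne2 -2.28 to -2.11. In all, 372 alternative values of the members stayed on their side of the threshold, 16 lost a call and 12 gained one; of those of the named list genes 152 held and 78 lost the call. Without TMM 7 mean levels per kb moved by more than their SD, and with raw counts 17 shares did. Ccnd2 rests on 36 counts in each library labelled knockout and Ccne2 on 49 and 53 in the Ssrp1 controls. The SE of their log2 changes in the Ssrp1 experiment was 0.43 and 0.47, and the part of depth in it was not tested.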
